A study of Rattus norvegicus with 218 samples.

Results

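The catecholamine genes Th and Drd2 were 2 of 165 genes assayed by RT-qPCR in rat neurons of the DMV, the dorsal vagal motor nucleus, and their rows were taken from the table by gene symbol. Th codes for tyrosine hydroxylase, the rate-limiting enzyme of catecholamine synthesis, which converts tyrosine to L-DOPA. Drd2 codes for the dopamine D2 receptor, a receptor that couples to inhibitory G proteins and that acts both on dopamine neurons themselves and on their targets. The DMV holds the cell bodies of vagal motor neurons, most of which are cholinergic, and catecholamine neurons lie in and next to it in the dorsal vagal complex. Dbh, which turns dopamine into noradrenaline, marks neurons that can go beyond dopamine, so that Th without Dbh and Th with Dbh are different states of the pathway.

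Adult male Sprague Dawley rats were naive, sham operated or given remote ischemic preconditioning (RIPC), a ligation of both femoral arteries that was then released. Sham animals had the anaesthesia with ketamine and xylazine and the exposure of the vessels without ligation, which RIPC animals had too, and tissue was taken 2.5 hours after reperfusion. NeuN-stained neurons were laser captured from the left or the right side, as single neurons or as pools of several neurons, and each sample was measured by microfluidic RT-qPCR. The animal numbers in the labels gave 3 naive, 4 sham and 3 RIPC animals, and these animals were the replicates. Neurons of 1 animal share their source and are not replicates, and exact tests over so few animals measure the spread between these animals.

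The table held 213 samples, 115 single neurons and 98 pools, after 5 second runs were joined to their first. A sample with a value in at least 25% of the assays was used for the comparisons, which left 186 samples, 98 single neurons and 88 pools, with 43 to 149 assays above the limit of detection. The sampling was uneven, since naive animal 3 gave 54 of the 98 single neurons and naive animal 1 gave none. Camk2a, a neuronal kinase, was detected in 96.9% of single neurons and the sodium channel gene Scn2a in 95.9%. Chat, the acetylcholine-synthesizing enzyme, was detected in 69.4%. The astrocyte transcript Gfap was detected in 80.6% of single neurons, and its part in the results below was not tested.

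Th was above the limit of detection in 127 of all 213 samples (59.6%, Wilson 95% interval 52.9 to 66.0) and Drd2 in 106 (49.8%, 43.1 to 56.4). With the 25% limit Th was detected in 55 of 98 single neurons (56.1%, 46.3 to 65.5) and in 66 of 88 pools (75%, 65.0 to 82.9). Drd2 was detected in 41 of 98 single neurons (41.8%, 32.6 to 51.7) and in 62 of 88 pools (70.5%, 60.2 to 79.0). These intervals cover counting error only. Among the 165 genes, Th ranked 68th and Drd2 82nd by detection in single neurons, where the median gene was detected in 40.8%. Of the 27 samples under the limit, 6 had Th and 3 had Drd2.

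The threshold cycle (Ct) is the amplification cycle at which product is seen, so a lower Ct is more template. Th had Ct values between 6.89 and 21.8 (median 11.9), and Drd2 between 8.64 and 23.8 (median 14.6). Over every gene and sample the median was 14.8. Only 2 Th values lay above 20 cycles, against 12 of the 106 Drd2 values (11.3%), so Drd2 had the longer tail of late values. Ct of different assays also depends on the assay, so these are not levels of one gene against the other.

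Detection of both genes rose with the number of assays above the limit of detection in a sample. That number counts the detected genes themselves, so the share of an average gene must rise with it. In the third of single neurons with the fewest assays (44 to 63), Th was detected in 31.2% and Drd2 in 28.1%. In the third with the most (77 to 149), Th was detected in 72.7% and Drd2 in 51.5%. In pools the shares went from 44.8% to 93.3% for Th and from 44.8% to 90% for Drd2. The part of this yield in the comparisons below was not tested. Of the 5 single neurons that were run a second time, Th was detected in the second run alone in 3 and in neither run in 2. Drd2 was detected in 1 run alone in 2 of them and in neither in 3, so no Th or Drd2 value was seen in both runs of a neuron.

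Treatment was compared over animals, with pools and single neurons apart, because naive samples were mostly single neurons and sham samples mostly pools. In pools, Th was detected in 33.3%, 80% and 72.7% of the pools of the 3 naive animals. The 4 sham animals had 71.4%, 72.7%, 100% and 94.1%. The 3 RIPC animals had 12.5%, 75% and 100%. The RIPC values covered almost the whole scale, and RIPC animal 1, with Th in 1 of 8 pools, was the lowest animal of all. That animal's pools also had a median of 56.5 assays, against 104 and 93.5 in the other RIPC animals, and the part of this in its Th value was not tested.

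**Figure D1:**
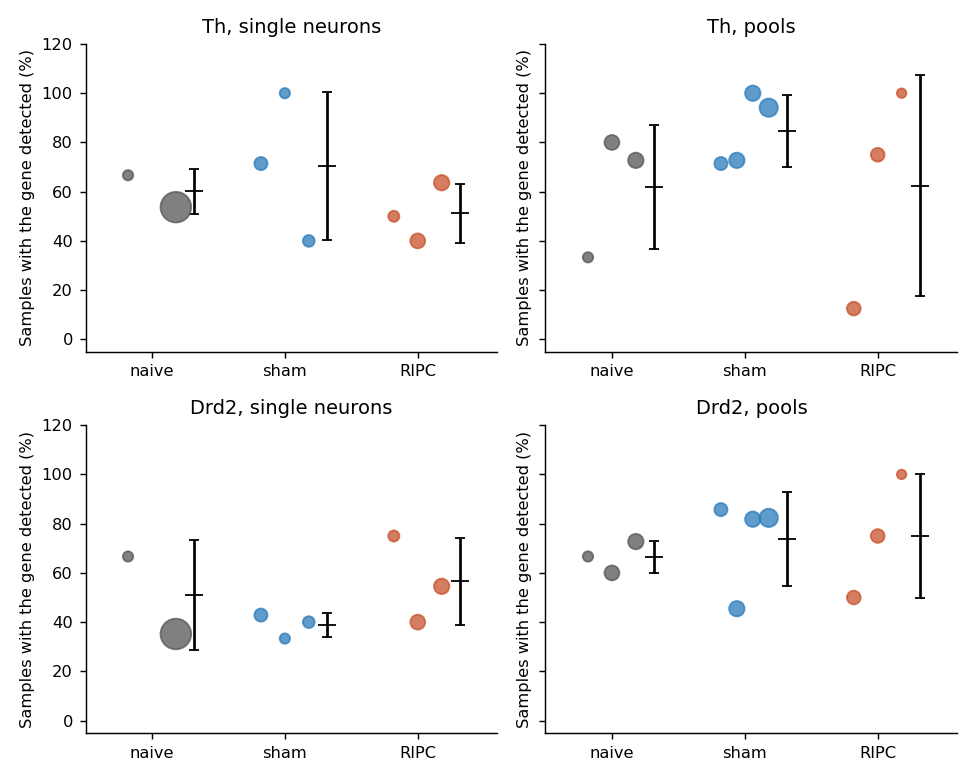
Share of samples with Th (top) or Drd2 (bottom) detected in each animal, for single neurons (left) and pools (right), in percent. Each point is an animal with at least 2 samples and grows with their number, bars give the mean and SD over animals, and an SD bar may pass 100%. Animals of the 3 treatments overlap in all 4 panels, and RIPC animal 1 is the low Th point among pools (12.5%).

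The share of pools with Th was 75.1% ± 30.4 (SD, n = 7) in operated animals and 62.0% ± 25.1 (n = 3) in naive animals, a difference of 13.1 percentage points (exact permutation test over animals, two-sided, p = 0.658). Without naive animal 1 the difference was -1.25 points. RIPC animals had 62.5% ± 45.1 (n = 3) and sham animals 84.6% ± 14.6 (n = 4), a difference of -22.1 points (exact permutation test, p = 0.629). It was 2.93 points without RIPC animal 1, and 8.93 points when only samples with at least 50% of the assays were used, a limit that also leaves out RIPC animal 1. It was -40.8 points without RIPC animal 3, which had 2 pools. With animals weighted by their samples it was -37.0 points (limma adjusted p = 0.886), and over samples Fisher's exact test gave an unadjusted p of 0.00327 and an adjusted p of 0.212, with pools of 1 animal counted as if independent. RIPC pools had a median of 85 assays and sham pools 100.5. Gfap was detected in 61.1% of RIPC and 78.3% of sham pools, Chat in 66.7% and 82.6%, and Dbh in 38.9% and 56.5%, all lower in RIPC pools as Th was, and their part in the Th difference was not tested. In pools, fewer cells with a transcript and less transcript per cell cannot be told apart. In the fit across all genes 0 of 130 genes were called in either comparison of pools (0% of genes tested, limma, Benjamini-Hochberg). At an unadjusted p under 0.05 there were 2 genes for surgery and 1 for RIPC.

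In single neurons, the animal means for Th were 60.8% ± 23.0 (n = 6) after surgery and 60.2% ± 9.17 (n = 2) in naive animals. RIPC animals had 51.2% ± 11.9 (n = 3) and sham animals 70.5% ± 30.0 (n = 3), a difference of -19.3 points (exact permutation test, two-sided, p = 0.5, where the smallest possible is 0.1). It was -1.01 points with no limit on the assays, -4.50 without sham animal 2 and -34.5 without sham animal 4. The order of the 3 means was sham, naive and RIPC, and the animals of neighbouring groups overlapped. Of 122 genes tested in single neurons 0 were called in each comparison (0%), with 5 and 7 at an unadjusted p under 0.05.

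The animal means of Drd2 detection in pools lay closer together. The naive animals had 66.7%, 60% and 72.7%, the sham animals 85.7%, 45.5%, 81.8% and 82.4%, and the RIPC animals 50%, 75% and 100%. The difference of operated from naive animals was 7.87 points (exact permutation test, p = 0.525) and that of RIPC from sham animals 1.17 points (exact permutation test, p = 1). The latter was -8.30 without sham animal 2, -11.3 without RIPC animal 3, -10.7 with no limit on the assays and -7.25 with animals weighted by their samples. In single neurons Drd2 was detected in 56.5% ± 17.6 (n = 3) in RIPC animals, in 38.7% ± 4.89 (n = 3) in sham animals and in 50.9% ± 22.3 (n = 2) in naive animals. The naive mean weighs naive animal 2 (2 of 3 neurons) like naive animal 3 (19 of 54), and over all neurons the shares were 36.8% in naive, 43.8% in sham and 52% in RIPC animals. Surgery minus naive was thus -3.30 points over animals (exact permutation test, p = 0.857), but 12.4 without naive animal 2 and 10.7 with animals weighted by their samples. The RIPC minus sham difference of 17.8 points had p = 0.3 in the exact permutation test, which cannot go below 0.1 with 3 animals against 3. It was 0.56 points without Ct values above 20, 2.47 points when animals with 1 sample were included and 8.54 points without RIPC animal 1. None of the treatment differences in detection of either gene passed the test over animals, which for RIPC minus sham in single neurons could not be passed.

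The level of a gene was its Ct subtracted from the median Ct of the 35 most widely detected genes of the same sample (-ΔCt, in cycles), so that a higher value is more transcript. It was averaged over the samples of an animal in which the gene was detected, where there were at least 2. Levels of Th over all samples ran from -6.57 to 6.59 cycles, with a median of 1.49. Those of Drd2 ran from -11.3 to 3.01, with a median of -0.78.

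**Figure D2:**
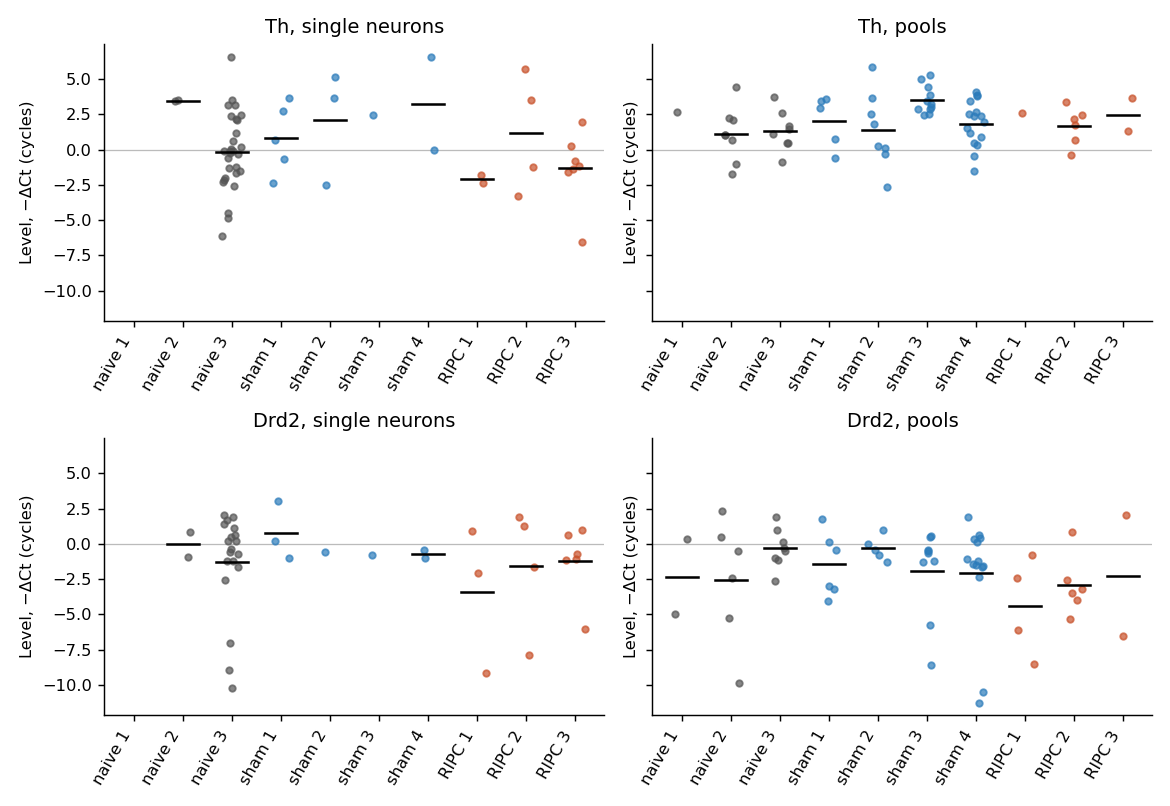
Level (-ΔCt, cycles) of Th (top) and Drd2 (bottom) in each sample in which it was detected, by animal, for single neurons (left) and pools (right). Each point is a sample and a black line is the mean of an animal with at least 2 values, and Drd2 reaches down to -11.3 cycles while no Th value lies under -6.57.

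In pools the mean Th level was 1.10 and 1.33 cycles in naive animals 2 and 3. It was 2.03, 1.41, 3.54 and 1.84 in the sham animals and 1.67 and 2.48 in RIPC animals 2 and 3. Naive animal 1 and RIPC animal 1 had 1 pool each with Th, at 2.65 and 2.56 cycles, and gave no mean. Among the animals with a mean, every operated animal was above both naive animals, by 0.95 cycles on average (2.16 ± 0.77, n = 6, against 1.21 ± 0.17, n = 2). The exact permutation test gave p = 0.143 with a smallest possible p of 0.0357, and the limma adjusted p was 1. With the animals of 1 pool included the difference was 0.52 cycles and the groups overlapped, since the pool of naive animal 1 lay above every operated animal except sham animal 3. Of 116 genes tested 2 had every operated animal above every naive one (1.72%), and 0 were called (0%). RIPC animals (2.07 ± 0.57, n = 2) and sham animals (2.20 ± 0.93, n = 4) differed by -0.13 cycles, less than the spread.

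In single neurons the Th level was 2.06 ± 1.23 cycles in sham animals (n = 3), 1.66 ± 2.56 in naive animals (n = 2) and -0.74 ± 1.71 in RIPC animals (n = 3). RIPC and sham animals differed by -2.80 cycles, and RIPC animal 2 with 1.18 lay above sham animal 1 with 0.80, so the groups overlapped. The exact permutation test gave p = 0.2, where the smallest possible is 0.1, and limma an adjusted p of 0.929 (0 of 83 genes called, 0%). The means of RIPC animal 1 and sham animal 4 rest on 2 neurons each. The difference of operated from naive animals was -0.998 cycles (exact permutation test, p = 0.571, limma 0 of 59 genes called, 0%). It was 0.81 cycles without naive animal 2, whose mean rests on 2 neurons.

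For Drd2 the mean level in pools was -4.44, -2.94 and -2.25 cycles in the 3 RIPC animals. The sham animals had -1.46, -0.30, -1.93 and -2.08, and the naive animals -2.33, -2.55 and -0.32. Every RIPC animal was below every sham animal, by 1.77 cycles on average (-3.21 ± 1.12, n = 3, against -1.44 ± 0.81, n = 4). The closest means were those of RIPC animal 3 and sham animal 4. RIPC animal 3 had Drd2 in 2 pools, at 2.05 and -6.54 cycles. Sham animal 4 had Drd2 in 14 pools, with an SD of 3.91 cycles. The exact permutation test over animals gave p = 0.0286, the smallest it can give, and the limma adjusted p over 106 genes was 0.975. Of those genes 6 had all RIPC animals below all sham animals (5.66%), and 0 were called (0%), so for Drd2 the difference did not pass across genes. The lower number of assays and the lower Gfap and Chat shares of RIPC pools given above for Th go with this difference as well, and their part in it was not tested. The difference was -1.15 cycles without RIPC animal 1, -0.62 when only samples with at least 50% of the assays were used, which leaves out that animal too, and -0.86 with undetected samples set 1 cycle past the highest Ct.

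Single neurons gave the same direction for Drd2. RIPC animals had -3.42, -1.57 and -1.23 cycles, and sham animals 1 and 4 had 0.73 and -0.72. The difference was -2.08 cycles (exact permutation test, p = 0.2, smallest possible 0.1, limma adjusted p = 0.929). Of 83 genes 8 had all RIPC animals below all sham animals (9.64%). Without sham animal 1 the difference was -1.35 cycles. Without Ct values above 20 it was -0.42 cycles, and with undetected samples set 1 cycle past the highest Ct of the table it was 1.00, the opposite sign. Operated and naive animals differed by -0.47 cycles in pools and -0.57 in single neurons, both within the spread (exact permutation tests, p = 0.625 and p = 0.619). Both signs turned without 1 naive animal, to 0.24 in pools without naive animal 3 and to 0.0657 in single neurons without naive animal 2.

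For the comparison of sides, single neurons and pools of an animal were used jointly. On the left 63.6% of 99 samples had Th and on the right 66.7% of 87. Left minus right was -5.49 points over 9 animals, positive in 3 and negative in 5 (exact sign-flip permutation test, p = 0.422). It was 10.4 with at least 50% of the assays, 7.20 in single neurons alone and 0.0611 with at least 1 sample per animal. Without RIPC animal 2, which had -41.7 points, it was -0.97. Drd2 was found in 59.6% on the left and 50.6% on the right, yet the mean difference within animals was -0.17 points (exact sign-flip permutation test, p = 0.996). Of 11 alternatives in processing, 6 turned its sign. Among pools alone Drd2 was detected in 33 of 47 on the left and 29 of 41 on the right. Among single neurons alone Drd2 was detected in 26 of 52 on the left and 15 of 46 on the right. In the naive single neurons, nearly all of animal 3, this was 14 of 29 and 7 of 28. None of 133 genes was called for side by limma (0%, 6 at an unadjusted p under 0.05).

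The level of Th was higher on the left in 6 of 8 animals, by 0.44 ± 0.56 cycles (SD of the differences, exact sign-flip permutation test, p = 0.0703, limma adjusted p = 0.93). It was -0.0101 cycles with at least 50% of the assays, -0.12 with at least 1 sample per animal and -0.69 with undetected samples set past the highest Ct. The Drd2 level differed by -0.30 ± 2.39 cycles over 9 animals (exact sign-flip permutation test, p = 0.727), and its spread between animals was far wider than that of Th. In naive animals 2 and 3 Drd2 was higher on the left, by 4.71 and 1.27 cycles. In the 3 RIPC animals it was lower on the left, by -2.74, -0.27 and -3.21 cycles. Sham animals had 0.67, -1.05, -1.76 and -0.30. The moderated F test of whether the difference between sides depends on treatment gave an unadjusted p of 0.00525 for Drd2 in limma, and an adjusted p of 0.588 over all genes. For Th the adjusted p of that test was 0.979. Limma called 0 of 123 genes by level for side (0%, with 4 at an unadjusted p under 0.05).

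**Figure D3:**
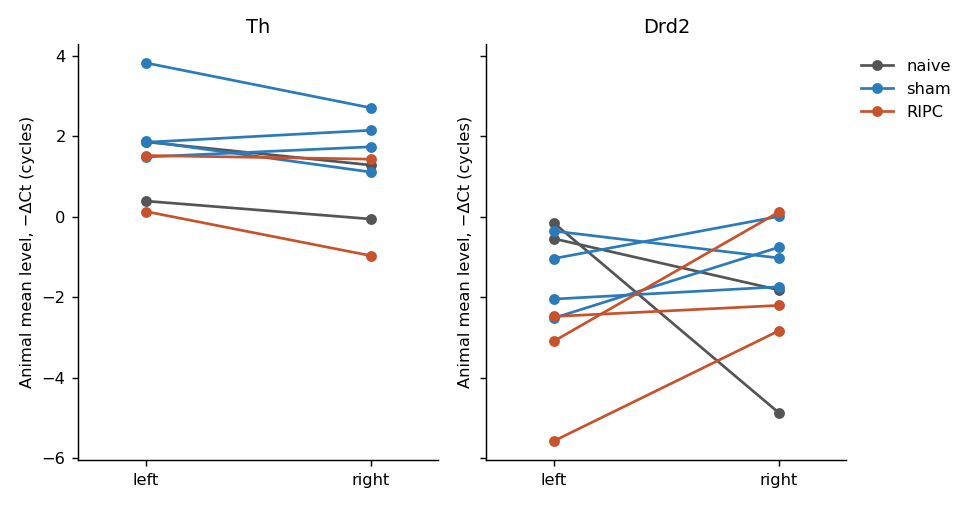
Mean level (-ΔCt, cycles) of Th and Drd2 on the left and the right side in each animal with at least 2 detected samples per side. Each line is an animal, and Drd2 lines go down from left to right in both naive animals and up in all 3 RIPC animals.

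Pools and single neurons were compared within the 8 animals that had at least 2 of each. Th was detected in 11.6 points more of the pools (SD 31.8, exact sign-flip permutation test, p = 0.328), higher in 5 animals and lower in 2. This was 5.56 points without sham animal 4, 18.7 without RIPC animal 1 and 20.7 with no limit on the assays. Drd2 was detected in 23.0 points more (SD 26.5, exact sign-flip permutation test, p = 0.0469), higher in 6 and lower in 2. In this comparison 23 of 133 genes were called by limma, all with the higher share in pools (17.3%), and the median gene had 14.9 points more. The number called ran from 5 (without sham animal 1) to 57 (without RIPC animal 1), and was 14 without Ct values above 20 and 48 with animals weighted by their samples. Drd2 had an adjusted p of 0.0839 and Th 0.4 in that fit, so neither was called. Without RIPC animal 1 the Drd2 difference was 29.8 points with an adjusted p of 0.0137.

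If the cells of a pool were independent draws at the single-neuron share of their animal, Th would be detected in 93.4% of the 74 pools of these animals, and it was detected in 73%. The share was below this value in 6 of 8 animals. For Drd2 the corresponding shares were 87% and 68.9%, below in 7 of 8 animals. By number of cells, Th was detected in 75% of samples of 2 cells, 92.9% of 3, 69.6% of 4 and 72.2% of 5. Drd2 was detected in 58.3%, 57.1%, 82.6% and 69.4% of them. Neither share was higher at each step.

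The Drd2 level was lower in pools than in single neurons in 6 of 7 animals, by 1.21 cycles on average (SD 1.12, exact sign-flip permutation test, p = 0.0312, limma adjusted p = 0.428, 0 of 105 genes called, 0%). On raw Ct without centring the sign turned, to 0.12 cycles. It also turned, and further, with undetected samples set 1 cycle past the highest Ct. The Th level was 0.36 cycles higher in pools (SD 2.07, exact sign-flip permutation test, p = 0.672), higher in 4 animals and lower in 3. A single-neuron level comes only from neurons with the gene, while a pool with the gene may also hold neurons without it. The levels of pools and single neurons are thus unlike measures, and the part of this in both differences was not tested.

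In single neurons the share with both Th and Drd2 was close to the product of their separate shares. Both were detected in 23 of 98 single neurons (23.5%, Wilson 95% interval 16.2 to 32.8), Th alone in 32, Drd2 alone in 18 and neither in 25. The product of the 2 shares was 23.5%. Taken within each animal, the products summed to 23.4 neurons. The Mantel-Haenszel odds ratio over animals, which is 1 when the detection of one gene does not depend on the other, was 0.93. In pools both were detected in 49 of 88 (55.7%, 45.3 to 65.6), Th alone in 17, Drd2 alone in 13 and neither in 9. The product of the shares was 52.8% and the odds ratio 1.29. A pool holds several neurons, so genes detected in the same pool need not come from the same cell. This holds for the marker genes in pools below too.

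**Figure D4:**
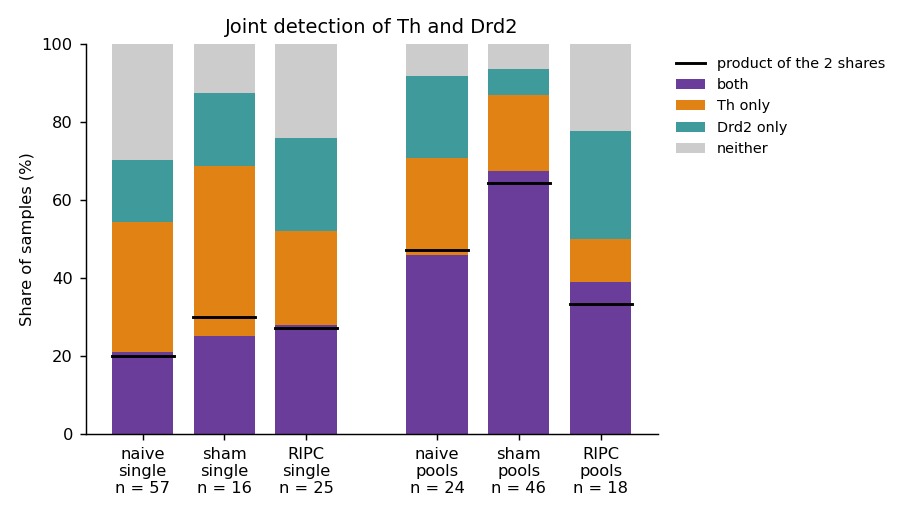
Share of samples (percent) with both Th and Drd2, Th only, Drd2 only or neither, by treatment, for single neurons (left 3 bars) and pools (right 3 bars). In pools, both genes need not be in the same cell. The black line is the product of the shares of the 2 genes, and the share with both lies on either side of it (single neurons 21.1%, 25% and 28%, pools 45.8%, 67.4% and 38.9%).

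Among single neurons, 12 of the 57 naive ones had both genes, as had 4 of 16 from sham and 7 of 25 from RIPC animals. The products of the shares were 20%, 30.1% and 27%, and the measured shares 21.1%, 25% and 28.0%. In pools the measured shares were 45.8% (naive), 67.4% (sham) and 38.9% (RIPC), beside products of 47.2%, 64.3% and 33.3%. On the left 14 of 52 single neurons had both, and on the right 9 of 46. With no limit on the assays, both were detected in 23 of 115 single neurons and 49 of 98 pools.

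The pair stood low among all pairs of Th or Drd2 with another gene. Among 116 genes detected in 10% to 90% of single neurons, the median odds ratio was 1.80 with Th and 1.46 with Drd2. The odds ratio of Drd2 with Th ranked 100th of the 116 pairs with Th and 101st of those with Drd2. When samples were also split at the median number of assays, the odds ratio was 0.65 in single neurons and 0.47 in pools. With at least 50% of the assays it was 2.50 in the 22 single neurons left and 0.31 in 63 pools, so its side of 1 depended on the limit. Leaving out 1 animal moved it between 0.62 (without naive 3) and 1.16 (without sham 1) in single neurons, and between 0.95 (without sham 1) and 2.07 (without naive 3) in pools. These are descriptions over cells that share animals and yield, and carry no test.

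Where both genes were detected, their levels had a Pearson correlation of 0.13 and a Spearman correlation of 0.05 over 72 samples. It was 0.40 in the 23 single neurons and 0.01 in the 49 pools by Pearson, and 0.28 and 0.08 by Spearman. The mean Th level was 0.12 cycles in single neurons with Drd2 and 0.33 in those without, and the mean Drd2 level was -1.19 in single neurons with Th and -1.23 in those without, with SDs from 2.51 to 3.29 cycles. In pools the mean Drd2 level was -1.63 ± 3.14 cycles with Th (n = 49) and -3.04 ± 2.91 without (n = 13). The mean Th level there was 2.05 ± 1.71 with Drd2 (n = 49) and 1.69 ± 1.96 without (n = 17).

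Among the markers, Chat was detected in 43 of the 55 single neurons with Th (78.2%, 65.6 to 87.1) and in 25 of the 43 without (58.1%, 43.3 to 71.6). Th without Chat was seen in 12 single neurons. Dbh was detected in 13 of the 55 with Th (23.6%, 14.4 to 36.4) and in 7 of the 43 without (16.3%, 8.12 to 30.0). Thus 42 of the 55 single neurons with Th had no Dbh value, and 10 had Th, Dbh and Chat. No value means below the limit of detection and does not show that Dbh was absent. Dbh was detected in 13 of 41 single neurons with Drd2 (31.7%, 19.6 to 47.0) and in 7 of 57 without (12.3%, 6.08 to 23.3). Chat was detected in 30 of 41 with Drd2 and in 38 of 57 without. With the number of assays removed, the correlation of detection of Th with Dbh in single neurons went from 0.14 to 0.03. That of Drd2 with Dbh went from 0.25 to 0.19.

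Gad1 or Gad2, the enzymes of GABA synthesis, were detected in 27 of 41 single neurons with Drd2 (65.9%, 50.6 to 78.4) and in 24 of 57 without (42.1%, 30.2 to 55.0). With Th they were detected in 26 of 55 and without Th in 25 of 43. In pools Gad1 or Gad2 were detected in 52 of 62 with Drd2 and in 6 of 26 without, and in 47 of 66 with Th and 11 of 22 without, so for Th the order of the shares differed between single neurons and pools. Chat was detected in 61 of 66 pools with Th and 11 of 22 without, and Gfap in 59 of 66 and 9 of 22. The pools with Drd2 had a median of 100 assays and those without 79.5, and for Th these were 100.5 and 68.5. Fos, an immediate early gene, was detected in 10 of 41 single neurons with Drd2 and 4 of 57 without, and in 9 of 55 with Th and 5 of 43 without. In pools Fos was detected in 23 of 62 with Drd2 and 2 of 26 without, and in 21 of 66 with Th and 4 of 22 without. Gfap was detected in 48 of 55 single neurons with Th and 31 of 43 without. The median number of assays was 75 in single neurons with Th and 63 without, and 73 and 67 for Drd2. With the number of assays removed, the correlation of detection of Th with Chat went from 0.21 to 0.12 in single neurons and from 0.36 to 0.19 in pools, and that of Th with Gfap in pools from 0.38 to 0.11. That of Drd2 with Gad2 went from 0.56 to 0.47 in pools and from 0.19 to 0.16 in single neurons. That of Drd2 with Fos went from 0.21 to 0.0757 in single neurons and from 0.32 to 0.23 in pools.

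By correlation of detection across the 98 single neurons, with each animal's mean subtracted, the genes most like Th were Foxo3, a stress-responsive transcription factor (0.40), the L-type calcium channel gene Cacna1d (0.33), the dendritic protein gene Map2 (0.30), the bombesin-family receptor gene Grpr (0.30) and the T-type channel gene Cacna1g (0.29). The genes most like Drd2 were the substance P receptor gene Tacr1 (0.36), the cation channel gene Trpc6 (0.35), the T-type channel genes Cacna1i (0.32) and Cacna1h (0.29), and the histamine receptor gene Hrh3 (0.31). Drd2 itself correlated with Th at -0.02. Pools gave another order, and their first 5 genes for Th and for Drd2 shared no gene with those of single neurons. Across the 88 pools the first gene was Adra1a for Th (0.48) and Gad2 for Drd2 (0.56), while Foxo3 ranked 68th for Th and Tacr1 71st for Drd2. With the number of assays also removed in single neurons, 2 of the 5 genes for Th and 3 of the 5 for Drd2 were still among the first 5.

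**Figure D5:**
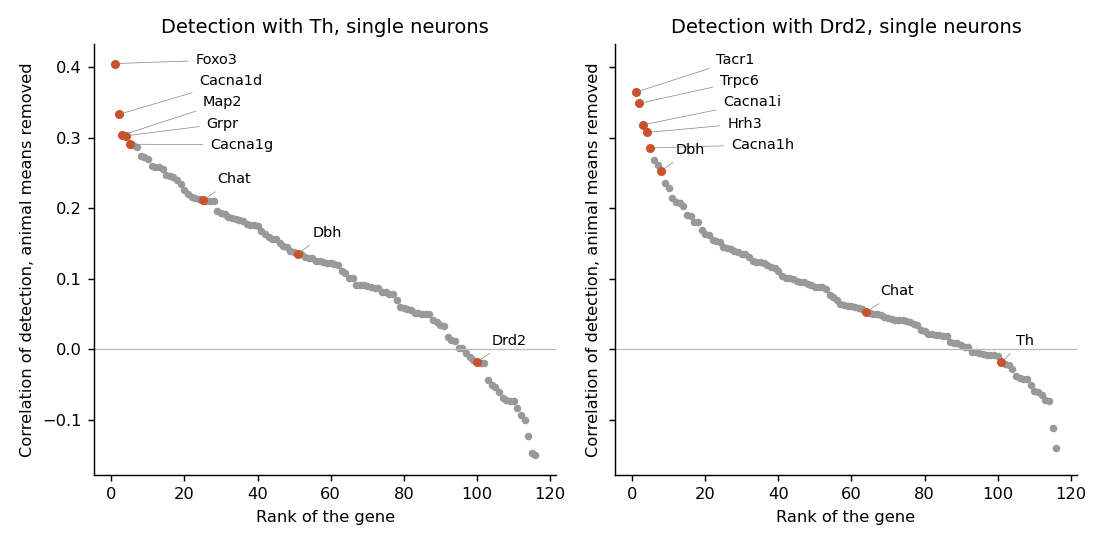
Correlation of detection (yes or no) of each of 116 genes with that of Th (left) and Drd2 (right) across 98 single neurons, after each animal's mean was subtracted, in order of rank. Red points are named, and each of Th and Drd2 lies near zero for the other (-0.02).

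Of the 25 genes in the catecholamine list, 10 were measured. Dbh was detected in 20.4% of single neurons and 50% of pools. Of the dopamine receptors, Drd1 was detected in 81.6% of single neurons, Drd2 in 41.8% and Drd3 in 4.08%. Of the adrenergic receptors, Adra2a was detected in 78.6%, Adra1a in 63.3% and Adra1b in 23.5%. In the 10 treatment and side comparisons, 0 of the 5 to 9 listed genes tested were called in either direction. Of all the 59 to 133 genes tested in each, 0 were called (0%).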

How the data were processed

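The authors deposited raw Ct values (not normalized) from microfluidic RT-qPCR of preamplified cDNA, with no value where an assay was below the limit of detection. The chip a sample ran on is not given, so chip was not tested as a batch. The methods speak of at least 50% of assays for a sample and elsewhere of 25%. Here 25% was used and 50% was an alternative. Duplicate assays of a gene and second runs were averaged. Animals, sides and cell numbers came from the labels. Per animal, the share of samples with a value (at least 2 samples, genes detected in 10% to 95%) and the mean -ΔCt (at least 2 detected samples) were tested with limma 3.58.1 in R 4.3.3, with Benjamini-Hochberg adjustment at 0.05, and Th and Drd2 also by exact permutation over animals. Model code was tested on simulated data. The members and gene lists were chosen with earlier results of these data known. Named genes were Th and Drd2, the measured catecholamine genes (some are not reported here), the 5 most alike in detection and cell type markers. All 165 symbols matched RefSeq (GRCr8). Alternatives covered the limit, centring, late values, runs, weights and each animal left out.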

Additional observations from a re-analysis of the deposited data

Results flagged for a closer look

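In pools, Drd2 was detected in 45.5% of the samples of sham animal 2, which lay apart from the other sham animals (81.8% to 85.7%). The level of Drd2 in pools minus single neurons was 0.99 cycles in naive animal 3, apart from the negative values of the other 6 animals. Of 12 groups examined in this way 2 held such an animal, and chance gives about 1 in 20. The Drd2 level was higher on the left than on the right in both naive animals (mean 2.99 cycles) and lower in all 3 RIPC animals (mean -2.07 cycles). The moderated F test over the 3 treatments gave an adjusted p of 0.588 in limma, and the pair naive and RIPC was not tested on its own.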

How the results depend on the processing

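Over 24 comparisons of Th and Drd2, 227 of 262 alternatives kept the direction and the call, 33 reversed the direction and 2 moved past the threshold on limma's adjusted p, which no difference of Th or Drd2 had passed. Of the 33, 2 concern the Drd2 level in pools minus single neurons (exact permutation p = 0.0312). Shares are in points and levels in cycles, and the causes were not tested. With at least 50% of the assays, Th share RIPC minus sham in pools was 8.93, Drd2 share surgery minus naive in single neurons 53.3, Th share left minus right 10.4, Th level left minus right -0.0101, and the levels of Th and Drd2 surgery minus naive in single neurons 0.46 and 0.51. At this limit 22 single neurons were left, and the single-neuron values compare RIPC animals 1 and 3 with naive animal 3, with no sham animal, so they test nothing about surgery. Joint detection was then 40.9% in single neurons and 69.8% in pools, with odds ratios of 2.50 and 0.31. With no limit, Drd2 share was -10.7 for RIPC minus sham in pools and 10.7 for left minus right, Th level RIPC minus sham in pools 0.075, and the single-neuron odds ratio 1.08. Without values above 20 cycles, Drd2 share left minus right was 0.0301, the single-neuron odds ratio 1.05, and genes called were 14 for share and 1 for level in pools minus single neurons. With at least 1 sample per animal, Drd2 share was 4.18 for surgery minus naive in single neurons and 9.85 for left minus right, Th share left minus right 0.0611, Th level RIPC minus sham in pools 0.0304 and left minus right -0.12, and 1 gene was called by level in pools for surgery and 1 for RIPC. With animals weighted by samples, Drd2 share was -7.25 for RIPC minus sham in pools, 10.7 for surgery minus naive in single neurons, 6.42 for left minus right and 27.9 for pools minus single neurons (limma adjusted p = 0.0151), with 1 gene called for surgery in single neurons and 48 for pools minus single neurons. The arcsine share gave -0.0255 radians for Drd2 RIPC minus sham in pools, and the first run alone 0.77 for Drd2 left minus right. In single neurons alone, left minus right was 7.20 for Th share, 22.6 for Drd2 share and 0.37 for Drd2 level. Centring on all detected genes gave 0.0024 and raw Ct 0.12 for Th level RIPC minus sham in pools, and raw Ct 0.12 for Drd2 level pools minus single neurons, with 5 genes called. With undetected values set past the highest Ct, Drd2 level was 0.44 for surgery in pools, 1.00 for RIPC minus sham in single neurons and 1.95 for pools minus single neurons (5 genes called), and Th level left minus right -0.69. Over samples, Fisher's test gave -7.25 for Drd2 share RIPC minus sham in pools and 11.9 for surgery in single neurons, with 2 genes called there. The methods' t-test gave 0.36 for Th level surgery in single neurons, with 5 genes called for surgery and 1 for RIPC. With the number of assays regressed out, 2 of the 5 genes most like Th and 3 of those most like Drd2 were kept. A split at the median number of assays gave an odds ratio of 0.47 in pools.

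The animal number as a replicate block turned Drd2 level RIPC minus sham in single neurons to -4.15 and past the threshold, and changed no other call of Th or Drd2. Of the sham animals with a Drd2 level there, only animal 1 shares its number with a RIPC animal. The value is thus RIPC animal 1 (-3.42) minus sham animal 1 (0.73) and rests on 1 animal per group. The animal number only names animals, and same-numbered animals correlated from -0.41 to 0.37 in their deviations.

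Leaving out each animal in turn gave ranges of -1.25 to 23.5 (Th, reversed without naive 1) for share surgery minus naive in pools, -40.8 to 2.93 (Th, without RIPC 1) and -11.3 to 13.7 (Drd2, without sham 2 or RIPC 3) for share RIPC minus sham in pools, -7.17 to 7.14 (Th, without naive 3, sham 1 or sham 2) and -19.0 to 12.4 (Drd2, without naive 2) for share surgery minus naive in single neurons, -2.87 to 3.38 for Drd2 share left minus right (without sham 2, sham 3 or RIPC 1) and 19.7 to 29.8 for Drd2 share pools minus single neurons (past the threshold without RIPC 1). For levels the ranges were -0.88 to 0.24 for Drd2 surgery in pools (reversed without naive 3), -0.54 to 0.31 for Th RIPC minus sham in pools (without sham 3 or RIPC 2), -2.80 to 0.81 (Th) and -1.20 to 0.0657 (Drd2) for surgery in single neurons (both without naive 2), -0.92 to 0.0675 for Drd2 left minus right (without RIPC 1 or RIPC 3) and -0.22 to 0.81 for Th pools minus single neurons (without RIPC 3). Genes called ranged from 0 to 3 (without naive animal 3) for share surgery in single neurons and from 5 (without sham animal 1) to 57 (without RIPC animal 1) for share pools minus single neurons, with 12 or 13 without naive 2, naive 3, sham 4 or RIPC 2. The odds ratio ranged from 0.62 to 1.16 in single neurons and from 0.95 to 2.07 in pools.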
